A study of Bos taurus with 24 samples.

Results

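The 4 mature miRNAs bta-miR-10a, bta-miR-10b, bta-miR-196a and bta-miR-196b were taken from the deposited tables by their exact names, 4 of the 796 miRNAs listed for each breed. All 4 had counts in each of the 22 libraries. They were measured by small RNA-seq in mammary gland biopsies of lactating Holstein (HOLS) and Montbéliarde (MONT) cows. Each cow was biopsied on day 0, in the control period (CONT) with feed offered freely, and on day 6, at the end of the restriction period (REST). During restriction feed was limited, according to the labels, to 60% of the net energy of lactation, and the study's methods give another share. The groups compared were HOLS CONT and HOLS REST with 5 cows and MONT CONT and MONT REST with 6 cows. The biopsies of a cow came from alternate sides of the rear udder, so period and side cannot be told apart within a cow, and there was no unrestricted group on day 6.

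The HOX genes encode transcription factors that give cells their position along the body axis, and they stand in clusters that also hold miRNA genes. The miR-10 and miR-196 families are transcribed from these clusters, and each pair shares its seed, the stretch near the 5′ end that pairs with target mRNAs. HOX mRNAs are among the known targets of both families. miR-10b has been studied mostly in breast tumours, where it is known for its role in cell invasion.

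The positions of the genes were read from RefSeq on the assembly ARS-UCD2.0. The authors aligned to another build, so only neighbouring genes are given. MIR10A lay inside the span of HOXB3, between HOXB5 and HOXB4. MIR10B lay inside the span of HOXD4, between HOXD3 and HOXD8. miR-196a has a pair of genes with the same mature product, and its count does not tell them apart. MIR196A-1 lay inside the span of HOXB9, between HOXB13 and HOXB8, and MIR196A-2 between HOXC9 and HOXC10. MIR196B lay between HOXA10 and HOXA9. The members of each family are nearly identical in sequence, and how reads that fit both were assigned is not given in the sources used here, so a ratio within a family is uncertain to that extent.

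Total counts per library ranged from 6087865 to 18913916. The 6 miRNAs of the epithelial marker list had at least 1503 counts in every library. The skeletal muscle list was low, with a summed level of 36.9 to 186.0 CPM, and miR-206 of that list was not among the rows. CPM is the read count scaled to the total of its library, with that total adjusted by TMM normalization. Deviations from the group means correlated between both libraries of a cow with r from 0.12 to 0.69 across 388 miRNAs in 10 cows and with -0.20 in MONT cow 9615, which stood apart. Calls and ratios that turn on this cow are given with and without it. The labels give no sequencing batch, so a batch that followed the breed cannot be told apart from the breed. The authors report a lower share of clean reads in MONT than in HOLS libraries. They propose it as a possible reason for the lack of significant changes in MONT. Library quality thus also followed the breed, and its part was not tested.

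miR-10b was among the most abundant miRNAs of the mammary gland in both breeds, and miR-196a and miR-196b were present at a low level. The counts of miR-10b made up 5.34 to 14.3% of all miRNA counts of a library, and it took a place between 2 and 6 in the order of abundance. miR-10a made up 0.248 to 0.638% and took a place between 19 and 41. miR-196a was between places 111 and 168 and miR-196b between places 107 and 185. The 4 miRNAs together made up 5.59 to 14.8% of the counts, with a median of 8.60%, nearly all of it miR-10b. The lowest count behind any of these values was 106, for miR-196b in the CONT library of MONT cow 1613.

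Levels were compared as CPM after TMM normalization over all 22 libraries, which puts the 2 breeds on a common scale. In HOLS CONT, miR-10b was at 53317, 68229, 63241, 117002 and 122234 CPM in cows 1155, 1165, 2182, 8200 and 9195. In HOLS REST the same cows had 102066, 121211, 78587, 98143 and 154179 CPM. In MONT its lowest, median and highest values were 46812, 70871 and 120099 CPM in CONT and 47152, 74596 and 132465 CPM in REST. Each of the 4 groups spread more than 1.5-fold from its lowest to its highest cow, and the groups overlapped. The means were 84805 ± 32283 (SD, n = 5), 110837 ± 28567 (SD, n = 5), 78604 ± 25744 (SD, n = 6) and 86946 ± 35871 CPM (SD, n = 6) in HOLS CONT, HOLS REST, MONT CONT and MONT REST.

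miR-10a, the HOXB member of the family, lay far below miR-10b in every library. In HOLS CONT it was at 3006, 3837, 2673, 4445 and 4836 CPM in cows 1155, 1165, 2182, 8200 and 9195, and in HOLS REST at 5676, 6813, 3504, 4602 and 4993 CPM. In MONT its lowest, median and highest values were 2171, 3498 and 6570 CPM in CONT and 3567, 4383 and 6902 CPM in REST. REST was above CONT in every HOLS cow, by a small margin in cows 8200 and 9195, and 3 of the 5 HOLS REST libraries exceeded all HOLS CONT libraries. In MONT the highest CONT value belonged to cow 9615, and only 1 REST library lay above it.

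miR-196a, from the HOXB and HOXC clusters, had group means between 59.8 and 80.6 CPM. It was at 35.8, 57.5, 99.6, 60.0 and 54.9 CPM in HOLS CONT and at 56.9, 64.9, 78.4, 62.9 and 95.3 CPM in HOLS REST, in the same order of cows. In MONT its lowest, median and highest values were 27.8, 54.6 and 93.8 CPM in CONT and 65.3, 75.7 and 114.8 CPM in REST. The groups overlapped in both breeds, and 4 of the 6 MONT CONT libraries were below all MONT REST libraries.

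miR-196b, from the HOXA cluster, had its highest levels in the restricted MONT cows. It was at 38.0, 25.3, 28.7, 78.8 and 48.6 CPM in HOLS CONT and at 58.8, 34.0, 45.7, 35.0 and 63.5 CPM in HOLS REST. In MONT CONT, cows 1613, 1640, 1652, 2614, 5663 and 9615 had 15.0, 36.7, 56.3, 32.9, 36.2 and 79.1 CPM. In MONT REST the same cows had 93.4, 127.7, 99.0, 78.4, 87.1 and 47.6 CPM. Cow 9615 had the highest CONT value and the lowest REST value of its breed, and the other 5 MONT cows were above every HOLS REST library after restriction. The means were 43.9 ± 21.5 (SD, n = 5), 47.4 ± 13.5 (SD, n = 5), 42.7 ± 22.1 (SD, n = 6) and 88.9 ± 26.3 CPM (SD, n = 6) in HOLS CONT, HOLS REST, MONT CONT and MONT REST.

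**Figure D1:**
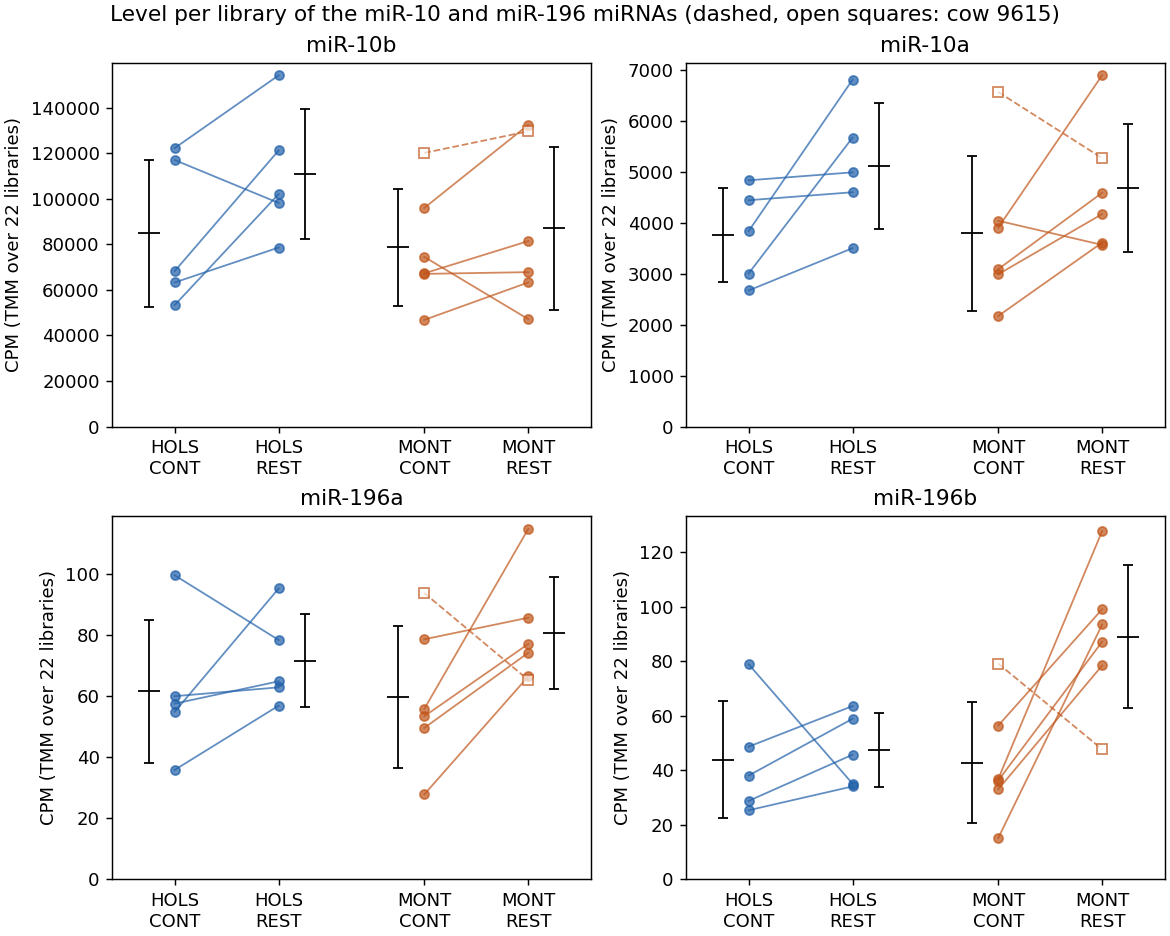
Level of each of the 4 miRNAs in CPM on linear axes starting at 0, by breed and period. Points are libraries, lines join the libraries of a cow, black marks are the mean and SD of a group, and the open squares of cow 9615 run against the other MONT cows for miR-196b, where the MONT REST mean is 88.9 CPM against 42.7 CPM in MONT CONT.

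The order of the levels was the same in every library down to miR-10a and then varied. miR-10b exceeded miR-10a in 22 of 22 libraries, and miR-10a exceeded both miR-196 miRNAs in 22 of 22. miR-196a exceeded miR-196b in 14 of 22 libraries, so these neighbours in the order did not differ beyond their spread. Each read stands for a whole mature miRNA, so the counts need no correction for length, but they are ratios of reads and not of molecules.

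The first question was whether the 4 miRNAs changed with feed restriction. In HOLS, 0 of the 4 passed an adjusted p of 0.05, against 2.41% of the 374 miRNAs tested, and 1 of the 4 had an unadjusted p under 0.05, as did 23.3% of all tested. All 4 fitted log2 fold changes of REST against CONT were above 0, as were 53.5% of all tested. Their median was 0.37, against 0.02 over all miRNAs tested. miR-10a had a log2 fold change of 0.50 (SE 0.19, adjusted p = 0.179 by Benjamini-Hochberg from the quasi-likelihood test of edgeR) and was higher in 5 of 5 cows. miR-10b had 0.45 (SE 0.25, adjusted p = 0.304, edgeR), miR-196a 0.29 (adjusted p = 0.530) and miR-196b 0.19 (adjusted p = 0.778), and each was higher in 4 of 5 cows. With each cow left out miR-196a ranged from 0.057 without cow 9195 to 0.49 without cow 2182, and miR-196b from 0.040 without cow 1155 to 0.59 without cow 8200. The size of both values thus moved with single cows, in either direction, while the sign did not change.

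With the cow as a block, which compares the libraries of the same animal, miR-10a passed the threshold in HOLS. Its log2 fold change was then 0.50 with an adjusted p of 0.0282 (edgeR), while 16.3% of the 374 miRNAs passed in either direction and 8.02% were called higher. miR-10b had 0.49 in that fit, with an adjusted p of 0.0512. The change of miR-10a per cow, in log2 CPM, was 0.92, 0.83, 0.39, 0.05 and 0.05 in cows 1155, 1165, 2182, 8200 and 9195. Cows 1155 and 1165 had the largest differences, and those of miR-10b were also largest in these cows, at 0.94 and 0.83.

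In MONT, 0 of the 4 miRNAs passed the threshold and 1 of the 4 had an unadjusted p under 0.05. Of the 349 miRNAs tested by edgeR 0.00% passed, and 47, or 13.5%, had an unadjusted p under 0.05. DESeq2 and limma-voom also called 0 miRNAs. The largest fitted change of the 4 was that of miR-196b, with a log2 fold change of 1.08 (SE 0.32, unadjusted p = 0.00455, adjusted p = 0.300, edgeR). With the cow as a block miR-196b was at 1.19 (adjusted p = 0.292, edgeR), and 0 miRNAs passed in that fit. It was higher in 5 of 6 cows, with changes per cow from 0.81 to 2.63 in these and of -0.73 in cow 9615. Without cow 9615 the fold change of miR-196b was 1.45, with an adjusted p of 0.0149 (edgeR), and 12.8% of 358 miRNAs passed, with 7.26% of the 358 called higher. That cow was singled out after its values were known.

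The other members gave smaller values in MONT. miR-196a had a log2 fold change of 0.45 (adjusted p = 0.418, edgeR), miR-10a 0.33 (adjusted p = 0.457) and miR-10b 0.16 (adjusted p = 0.773). Without cow 9615 these were 0.65, 0.49 and 0.14, with adjusted p of 0.108, 0.136 and 0.727 (edgeR). The median over the 4 was 0.39, against -0.01 over all 349 miRNAs.

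Over both breeds in a single fit, 0 of the 4 miRNAs passed, against 8.25% of 388, and 2 of the 4 had an unadjusted p under 0.05, as did 27.3% of all tested. The log2 fold change was 0.58 for miR-196b (SE 0.24, adjusted p = 0.125, edgeR), 0.37 for miR-10a (SE 0.17, adjusted p = 0.162), 0.33 for miR-196a (adjusted p = 0.251) and 0.27 for miR-10b (adjusted p = 0.393). Without cow 9615, miR-196b had 0.82 with an adjusted p of 0.00664 and miR-10a 0.50 with an adjusted p of 0.0147 (edgeR). In that fit 32.2% of the 388 miRNAs passed and 15.5% of the 388 were called higher, and the 2 of 4 are to be read beside that share. These fits had no block for the cow. With the block and all cows, 0 of the 4 passed, and 43 of the 388 miRNAs did. The values were then 0.40 for miR-10a, 0.69 for miR-196b, 0.39 for miR-196a and 0.27 for miR-10b. Their adjusted p were 0.0558, 0.0828, 0.0949 and 0.138 (edgeR).

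The change of miR-196b was not shown to differ between the breeds. The interaction of breed and period, the HOLS change minus the MONT change, was -0.94 on the log2 scale for miR-196b (SE 0.48, unadjusted p = 0.0611, adjusted p = 0.991, edgeR). It was -0.21 for miR-196a, 0.24 for miR-10b and 0.14 for miR-10a. Of the 388 miRNAs 0.00% passed and 3, or 0.773%, had an unadjusted p under 0.05, and DESeq2 and limma-voom called 0. With each cow left out the interaction of miR-196b ranged from -1.33 without cow 9615 (adjusted p = 0.391, edgeR) to -0.42 without HOLS cow 8200 (adjusted p = 0.995). With the cow as a block and all cows it was -0.98 (adjusted p = 0.985, edgeR).

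**Figure D2:**
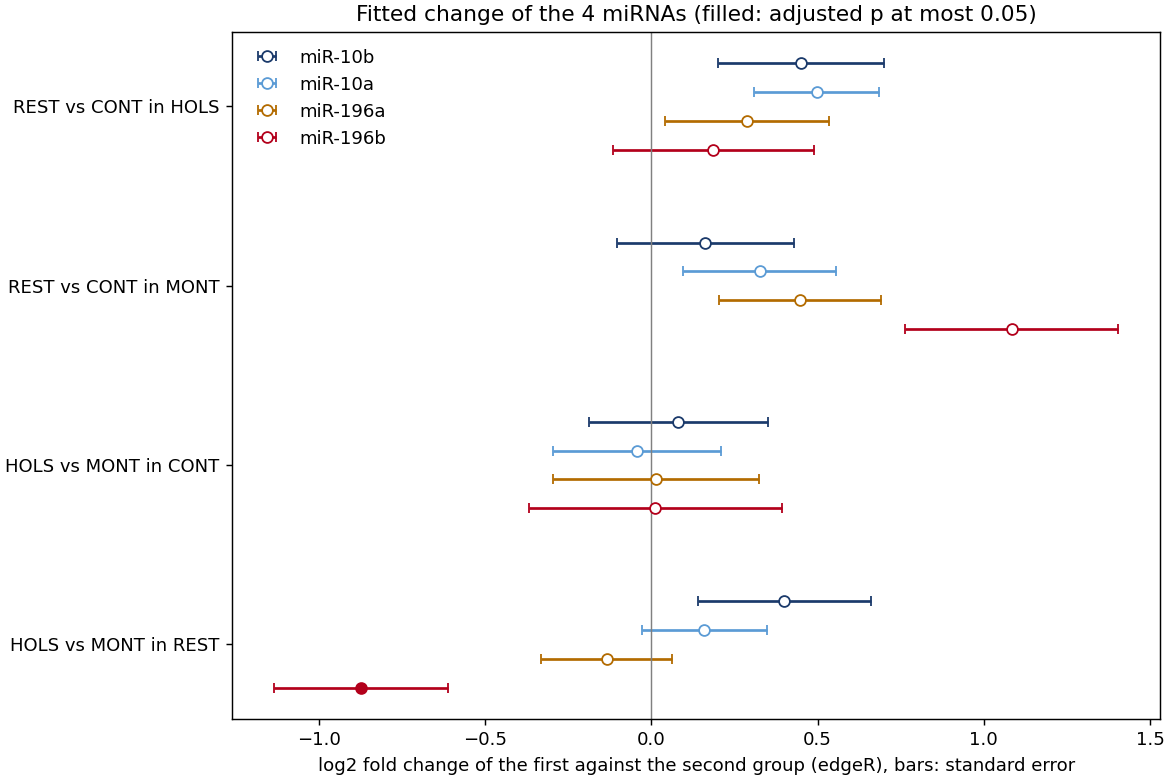
Fitted log2 fold change of each miRNA in 4 comparisons, with the standard error as bars and filled points for an adjusted p of at most 0.05. The only filled point is miR-196b in HOLS against MONT in REST, at -0.87.

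The second question was whether the levels differed between the breeds. Before restriction 0 of the 4 miRNAs passed, against 0.556% of 360. The log2 fold change of HOLS against MONT in CONT was 0.08 for miR-10b (SE 0.27), -0.04 for miR-10a (SE 0.25), 0.01 for miR-196a (SE 0.31) and 0.01 for miR-196b (SE 0.38), with adjusted p from 0.894 to 0.993 (edgeR). The sign of each of the 4 values changed with single cows left out, and the sign of miR-10a, miR-196a and miR-196b, but not of miR-10b, also changed with the normalization or the tool. The SE of miR-196b leaves room for a difference of moderate size in either direction.

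After restriction 1 of the 4 passed, miR-196b, which was lower in HOLS than in MONT. Its log2 fold change was -0.87 (SE 0.26, adjusted p = 0.0359, edgeR), and 15.3% of the 378 miRNAs tested passed, with 9.79% of the 378 called lower in HOLS and 5.56% called higher. The HOLS REST libraries ranged from 34.0 to 63.5 CPM and the MONT REST libraries from 47.6 to 127.7 CPM, and they overlapped through cow 9615. Without that cow the value was -1.03, with an adjusted p of 0.00591 (edgeR) and 20.4% of miRNAs called. The call did not hold without each of cows 1165, 1613, 1640, 2182, 5663 and 8200, where the adjusted p was 0.0884, 0.0631, 0.0579, 0.0649, 0.0505 and 0.0721, nor in the fit of all 22 libraries, where the value was -0.91, the adjusted p 0.0728 (edgeR) and the share of miRNAs called 13.7%. This comparison uses the same MONT REST libraries as the one between periods.

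The other 3 miRNAs did not pass between the breeds in REST. miR-10b was at 0.40 (SE 0.26, adjusted p = 0.291, edgeR), miR-10a at 0.16 (SE 0.19, adjusted p = 0.575) and miR-196a at -0.13 (SE 0.20, adjusted p = 0.665). For miR-10b, 3 of 6 MONT libraries were below all HOLS libraries and 1 of 5 HOLS libraries was above all MONT libraries.

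**Figure D3:**
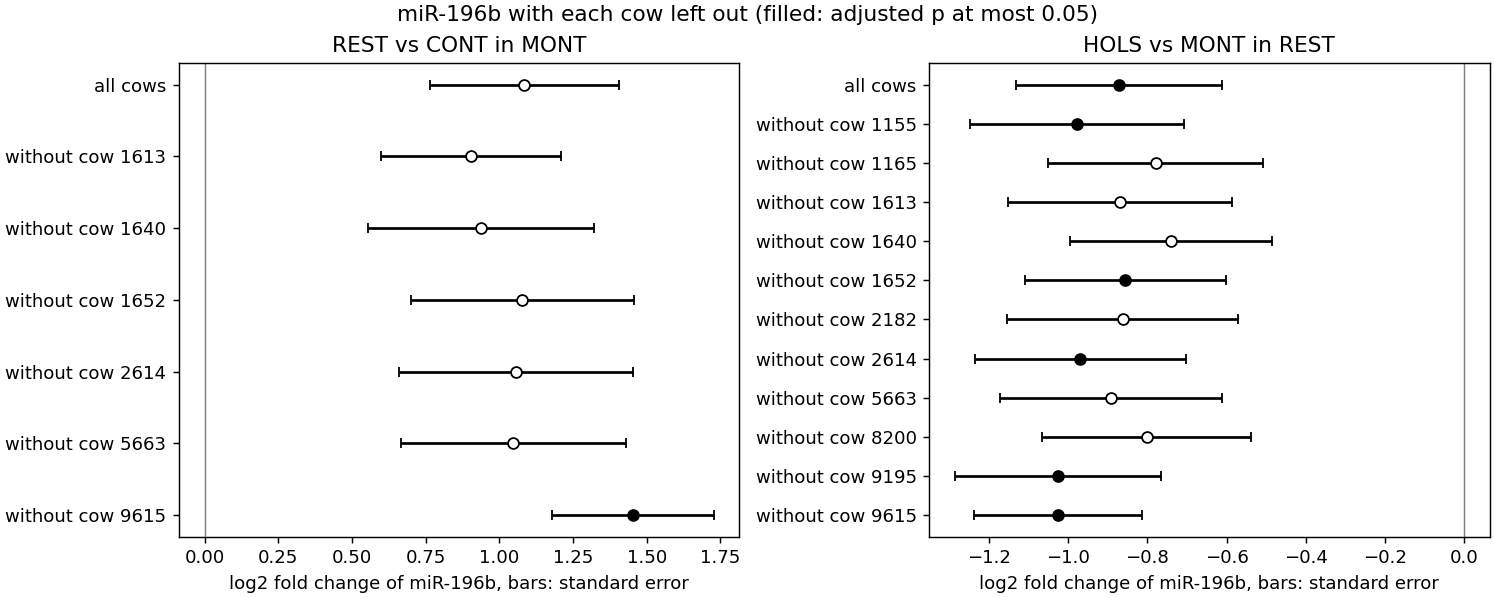
Fitted log2 fold change of miR-196b with all cows and with each cow left out, for REST against CONT in MONT on the left and HOLS against MONT in REST on the right. Bars are standard errors and filled points have an adjusted p of at most 0.05. Every estimate keeps its sign, from 0.90 to 1.45 on the left and from -1.03 to -0.74 on the right, while the calls move with single cows.

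Markers of cell types were compared beside miR-196b. In bulk tissue, fewer cells of a type and less RNA per cell cannot be told apart. Of the 4 miRNAs of the stromal list (miR-199a-3p, miR-199a-5p, miR-199b and miR-214, which mark fibroblasts and other mesenchymal cells), 3 of 4 were called lower in HOLS than in MONT in REST, against 9.79% of all miRNAs tested, with a median log2 fold change of -0.97, and each had at least 82 counts in every library. Their summed level ranged from 926 to 1408 CPM in HOLS REST and from 1367 to 3112 CPM in MONT REST. In MONT it ranged from 822 to 2703 CPM in CONT, and the median change of the list between periods was 0.69, with 0 of 4 called. Between the breeds in CONT the median of the list was -0.62, with 0 of 4 called against 0.556% of 360. In that comparison 0 of 4 were above 0, against 48.3% of all miRNAs tested, and miR-196b was at 0.01. The part of stromal cells in the values of miR-196b was not tested.

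Of the 6 epithelial markers, the miR-200 family with miR-141, miR-429 and miR-205, 2 were called higher and 1 lower in HOLS than in MONT in REST, where 5.56% of all miRNAs were called higher and 9.79% lower. Their summed level was 23645 to 55413 CPM in HOLS REST and 11735 to 33471 CPM in MONT REST. Of the 2 endothelial markers 1 was called higher in HOLS, and the lists for leukocytes, red blood cells, skeletal muscle and smooth muscle had 0 called.

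Ratios of counts within a library do not depend on the normalization, and 3 of them were compared in 4 comparisons each. The ratio of miR-10b to miR-10a had the narrowest range of the 3, from 13.2 to 30.9 with a median of 20.3, so that miR-10b made up 93.0 to 96.9% of the miR-10 counts. In HOLS the ratio was 17.7, 17.8, 23.7, 26.3 and 25.3 in CONT and 18.0, 17.8, 22.4, 21.3 and 30.9 in REST, in the order of cows used above. In MONT its lowest, median and highest values were 18.3, 21.7 and 24.6 in CONT and 13.2, 17.6 and 24.6 in REST. The log2 ratio was 4.40 ± 0.17 (SD, n = 6) in MONT CONT and 4.15 ± 0.29 (SD, n = 6) in MONT REST, and the difference of -0.24 did not pass the two-sided exact permutation test (p = 0.110, adjusted p = 0.275 over 12 tests). That test did not pair the libraries of a cow, and the paired exact test gave p = 0.156. The ratio was lower in REST in 5 of 6 MONT cows, and without cow 9615 the difference was -0.38 (exact permutation, adjusted p = 0.0635). In HOLS the log2 ratio differed by -0.01 between the periods (exact permutation p = 0.976).

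The ratio of miR-196a to miR-196b varied more, from 0.581 to 3.69 with a median of 1.29. It was 0.943, 2.27, 3.47, 0.761 and 1.13 in HOLS CONT and 0.967, 1.91, 1.72, 1.80 and 1.50 in HOLS REST. In MONT its lowest, median and highest values were 0.843, 1.37 and 3.69 in CONT and 0.581, 0.875 and 1.37 in REST. miR-196a was the more abundant of the pair in 5 of 6 MONT CONT libraries and in 2 of 6 MONT REST libraries. Between HOLS and MONT in REST the log2 ratio differed by 0.73, with an unadjusted exact permutation p of 0.0216 and an adjusted p of 0.260. Between the periods in MONT it differed by -0.67 (exact permutation p = 0.0714, adjusted p = 0.275). Without cow 9615 these differences were 0.84 and -0.84, with adjusted p of 0.0635 and 0.0794 from the exact permutation test.

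The summed miR-10 counts were 274.5 to 1294 times the summed miR-196 counts, with a median of 859. The ratio was 763, 869.8, 513, 875 and 1228 in HOLS CONT and 931, 1294, 662, 1049.6 and 1002 in HOLS REST. In MONT its lowest, median and highest values were 567, 862 and 1153 in CONT and 274.5, 455 and 1193 in REST. The ratio was lower in REST in 5 of 6 MONT cows and higher in REST in 4 of 5 HOLS cows. The exception in MONT was cow 9615, at 732 in CONT and 1193 in REST.

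None of the 12 tests of the ratios passed after adjustment, with all cows or with any cow left out. The log2 ratio of summed miR-10 to summed miR-196 differed by 0.90 between HOLS and MONT in REST (exact permutation p = 0.0519, adjusted p = 0.275) and by -0.67 between the periods in MONT (exact permutation p = 0.115, adjusted p = 0.275). Without cow 9615 these were 1.15 and -0.95, with adjusted p of 0.0635 and 0.0794 from the exact permutation test. The change of this ratio per cow was 0.24 on average in HOLS and -0.67 in MONT, and the difference of 0.91 had an exact permutation p of 0.0433 and an adjusted p of 0.130 over the 3 ratios, in a comparison added after the data had been seen. With each cow left out this difference ranged from 0.79 to 1.19 and its adjusted p from 0.0238 to 0.238 (exact permutation). It passed only without cow 9615, as did the same comparison for the ratio of miR-10b to miR-10a, which then differed by 0.37 (adjusted p = 0.0357) against 0.23 with all cows (adjusted p = 0.242, exact permutation). The smallest p that the exact test can give is 0.00794 for 5 against 5 libraries and 0.00433 for 5 against 6. A single ratio at either value would not pass after adjustment over the 12 tests. The smallest p is higher when a cow of the groups compared is left out. In these comparisons, not passing therefore does not show that the ratios were alike.

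**Figure D4:**
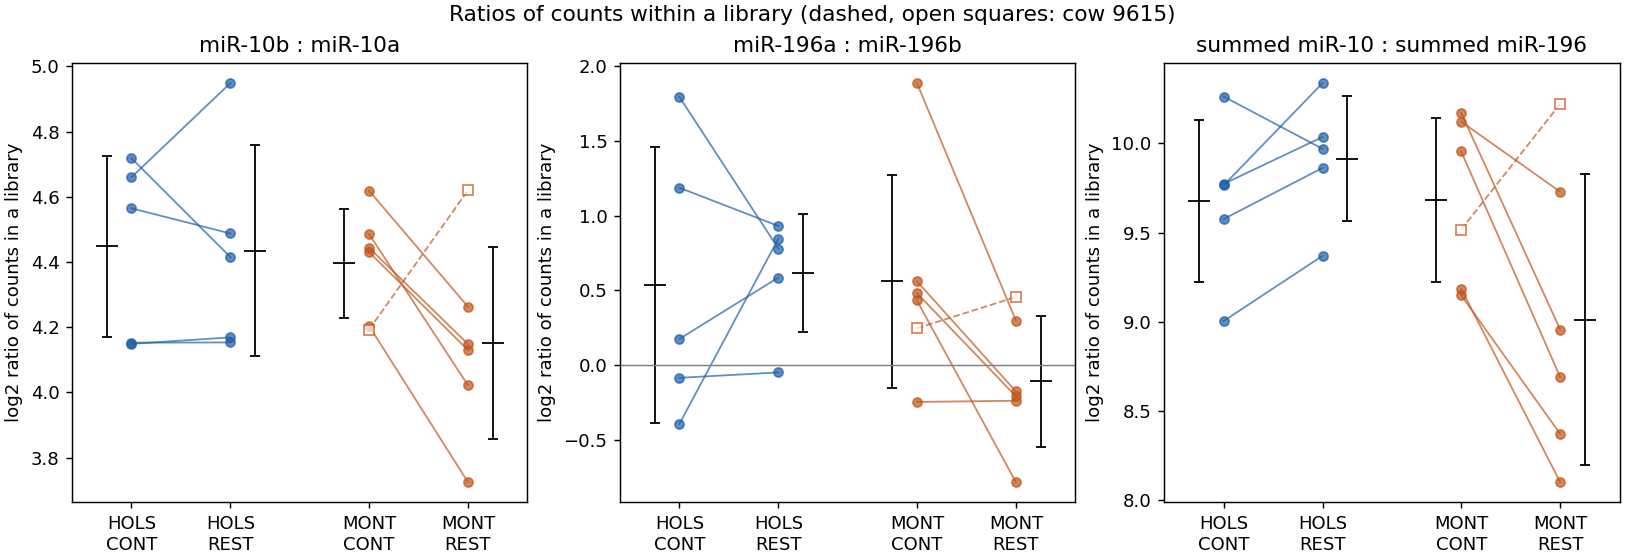
Log2 ratio of counts within a library by breed and period, for miR-10b to miR-10a, miR-196a to miR-196b, and summed miR-10 to summed miR-196. The vertical axes do not start at 0, lines join the libraries of a cow, black marks are the mean and SD, and open squares are cow 9615. In MONT the ratio of summed miR-10 to summed miR-196 was lower in REST in 5 of 6 cows.

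The members of the miR-10 family had similar deviations across libraries, and those of the miR-196 family less so. Likeness was measured as the Pearson correlation of log2 CPM, as deviations from the group means, over the 22 libraries, which include pairs from the same cow, so it is given as a description. It was 0.85 between miR-10a and miR-10b and 0.30 between miR-196a and miR-196b, or 0.12 without cow 9615. Between the families it ranged from 0.21 to 0.32, and from 0.036 to 0.28 without that cow. The value of the miR-196 pair lay within the range between the families both with and without that cow. Among 208 candidates, the miRNAs most like miR-10a were miR-183 (0.89), miR-191 (0.87) and miR-374a (0.86). Those most like miR-10b were miR-10a itself (0.85), miR-374a (0.82) and miR-191 (0.81).

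For miR-196a the highest correlations were lower, with miR-181d (0.64), miR-130a (0.59) and miR-181c (0.56). For miR-196b they were with a predicted miRNA named chr21_21957_mature (0.72), miR-199b of the stromal list (0.68) and miR-25 (0.67). Without cow 9615 the value for miR-199b was 0.52 and that for miR-25 was 0.67.

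A list of related miRNAs held miR-615, a further HOX cluster miRNA, and miR-99a-5p, miR-99b and miR-100, relatives of miR-10 from outside the HOX clusters. It also held miR-99a-3p, which is the opposite arm to miR-99a-5p and had group means from 8.22 to 13.2 CPM. miR-615 had 0 to 4 counts in any library and was not tested, so a difference was not detectable at this depth. The other 4 were called lower in HOLS than in MONT in REST, 4 of 4 beside the 9.79% given above, with a median log2 fold change of -0.68. In the fit of all 22 libraries 2 of 4 kept the call, and miR-99a-5p and miR-99b had adjusted p of 0.0715 and 0.0655 (edgeR). miR-100 had -1.11 (adjusted p = 0.00981, edgeR), with 708 ± 117 CPM (SD, n = 5) in HOLS REST and 1546 ± 462 CPM (SD, n = 6) in MONT REST. In CONT 0 of 4 were called, against 0.556% of 360. The median log2 fold change there was -0.66, close to that in REST, and 0 of 4 were above 0, against 48.3% of all miRNAs tested. miR-100 ranged from 417 to 804 CPM in HOLS CONT and from 716 to 2023 CPM in MONT CONT, with an adjusted p of 0.135 (edgeR). In the fit of all 22 libraries that p was 0.0400, with 7.47% of 388 miRNAs called. None of the 4 was called between the periods in either breed without a block and with all cows. With the cow as a block miR-100 had 0.41 in HOLS with an adjusted p of 0.0384 (edgeR), where 16.3% of 374 miRNAs were called. Without cow 9615, miR-100 had 0.84 and miR-99a-5p 0.73 in MONT, with adjusted p of 0.0413 and 0.0384 (edgeR). In that fit 12.8% of 358 miRNAs were called.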

How the data were processed

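The deposited counts are reads per mature miRNA, which the authors obtained from TruSeq small RNA libraries by removing adapters, keeping reads by size, quantifying with ncPRO-seq and aligning to the bovine genome and miRBase with miRDeep2. The authors' normalized counts and their comparisons made with DESeq2 were not used. The 2 libraries of a further HOLS cow were not analysed here.

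Counts of both tables were joined and fitted across all miRNAs with edgeR 4.0.16 (TMM, filterByExpr with minimum count 10, quasi-likelihood F test, Benjamini-Hochberg adjustment, threshold 0.05) in R 4.3.3. Breeds were compared within a period, so that each cow entered once. Log2 ratios (0.5 added to each count) were compared with two-sided exact permutation tests in scipy 1.17.1. Between periods these tests did not pair the libraries of a cow, and a paired exact test was run as an alternative. Alternatives were DESeq2 1.42.0, limma-voom (limma 3.58.1), other scalings and filters, a threshold of 0.10, normalization without the 4 miRNAs, the cow as a block and each cow left out.

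Library totals of 6087865 to 18913916 counts gave at least 106 counts per value, and counting error is only part of the spread between cows. Replicates of a group differed by far more than sampling noise. Libraries of a number came from the same cow by the labels. The correlations of their deviations given with the results were positive in 10 of 11 cows. The main fits had no block for the cow, since none is named in the study's methods.

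The members, the lists and the tests were chosen with earlier results of these data known. Besides the 4 members, a rule named the list of related miRNAs and the 3 miRNAs most like each member with a mean of at least 10 CPM. The main edgeR fits were tested on simulated data, in which the libraries were independent of each other. The block, the other tools, the tests of ratios and the correlations were not tested in this way. RefSeq gave neighbouring genes only.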

Additional observations from a re-analysis of the deposited data

How the results depend on the processing

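Of the 4 miRNAs, the number past the threshold in HOLS between the periods was 1 with the cow as a block against 0. The block changed no other call of a member. Between the breeds in REST the number was 0 in the fit of all libraries against 1. It was also 0 without each of cows 1165, 1613, 1640, 2182, 5663 and 8200. With each cow left out it ranged from 0 to 1 in MONT and from 0 to 2 over both breeds between the periods. The higher values were without cow 9615.

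miR-196b between the breeds in REST kept its direction under every alternative run, with adjusted p from 0.0104 to 0.0728 over the settings and from 0.00591 to 0.0884 with each cow left out. Small differences changed sign. Between the breeds in CONT, miR-10a was at 0.094 with the upper quartile and 0.011 with limma-voom, miR-196b at -0.0052 with DESeq2's size factors and -0.0029 with normalization without the 4 miRNAs, and miR-196a at -0.00057 with the latter. With each cow left out, the ranges in CONT were -0.16 to 0.19 for miR-10a, -0.089 to 0.24 for miR-10b, -0.24 to 0.19 for miR-196a and -0.29 to 0.28 for miR-196b, and for the interaction -0.043 to 0.37 for miR-10a and -0.44 to 0.059 for miR-196a. Uncalled fold changes also moved, in REST between the breeds from 0.038 to 0.29 for miR-10a, 0.21 to 0.55 for miR-10b and -0.29 to -0.018 for miR-196a, and between the periods in MONT from 0.19 to 0.49 for miR-10a and 0.063 to 0.21 for miR-10b. The log2 ratio of miR-10b to miR-10a then ranged from -0.014 to 0.13 between the breeds in CONT and from -0.090 to 0.058 between the periods in HOLS. That of miR-196a to miR-196b ranged from -0.34 to 0.24 and from -0.21 to 0.36, and that of summed miR-10 to summed miR-196 from -0.15 to 0.16 between the breeds in CONT. The cause of these changes was not tested. The paired exact test gave p from 0.0938 to 0.875 for the ratios between periods, and with 5 cows it cannot go below 0.0625.

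Counts over all miRNAs moved more. In HOLS between the periods 9 became 5 without a filter, 16 with normalization without the 4 miRNAs, 17 with limma-voom, 20 with library size only, 26 with DESeq2 or a threshold of 0.10, 61 with the cow as a block and 3 to 14 with each cow left out. Over both breeds 32 became 14 without a filter, 52 at 0.10 and 7 to 125 with each cow left out, and the split of 8 higher and 24 lower was 0 and 27 with library size only. Between the breeds in CONT 2 became 1 with library size only or the upper quartile, 7 at 0.10, 20 with DESeq2, 29 in the fit of all libraries and 0 to 6 with each cow left out. In REST 58 became 97 at 0.10 and 38 to 77 with each cow left out, and the split of 21 higher and 37 lower was 13 and 41 with library size only. In MONT between the periods 0 became 0 to 46. Library size only moved the median of all miRNAs by -0.17 in HOLS and by -0.13 between the breeds in REST, and the upper quartile by -0.18 in MONT. All 4 miRNAs stayed above 0 between the periods under every scaling, but some values came close to 0. With the upper quartile miR-10b in MONT was at 0.0011 (SE 0.26). With library size only miR-196b in HOLS was at 0.035 (SE 0.26).

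Depth does not limit miR-10a and miR-10b. With 5 and 6 cows, the spread between cows limits all 4.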
